A study of Mus musculus with 4 samples.

Results

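The matrix metalloproteinases (MMPs), the ADAMTS proteases and the tissue inhibitors of metalloproteinases (TIMPs) were described in inguinal white fat of mice given a medicinal herb extract (MHE) and of mice given phosphate-buffered saline (PBS). Members were taken by symbol alone: a row belonged if it read Mmp, Adamts or Timp followed by a number and at most 1 letter. This gave 46 of the 26214 symbols listed, 23 MMPs, 19 ADAMTS genes and 4 TIMPs. RNA came from the stromal vascular fraction, the cells left once digested fat has lost its floating adipocytes, with 2 MHE libraries and 2 PBS libraries. The labels call them biological replicates. Strain, sex, age, diet, dose and duration are not given in the labels, nor is the composition of the extract, and the protocol text speaks of triplicates, of which 2 per group were analysed here.

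MMPs are zinc-dependent enzymes that cut collagens, elastin and other proteins of the extracellular matrix. Most are secreted as inactive precursors, while the membrane-type MMPs stay on the cell surface. ADAMTS enzymes carry thrombospondin repeats that hold them in the matrix, where some trim proteoglycans such as versican and aggrecan and others mature fibrillar procollagens. TIMPs are small secreted proteins that plug the active site of these enzymes, and TIMP2 also helps MMP14 at the cell surface to activate MMP2. In fat, this machinery remodels the matrix around adipocytes and vessels as the depot grows or shrinks, and macrophages, fibroblasts, vessel cells and adipocytes all contribute to it.

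A cluster of 10 MMP genes lies on chromosome 9, and 7 of them share a short element just upstream of their start that can bind the AP-1 transcription factors. The cluster runs over 427 kb (chr9:7272514-7699585 in GRCm38.p6, the assembly behind mm10) and holds Mmp13, Mmp12, Mmp1b, Mmp3, Mmp1a, Mmp10, Mmp8, Mmp27, Mmp20 and Mmp7 in that order. The 100 bases before the annotated start of those 7 genes (for Mmp12 the downstream of its 2 annotated starts) are shown, 5′ to 3′ on the gene's strand, because they let the neighbours be set beside each other. Capitals mark the element, TGAGTCA or its reverse complement TGACTCA, and the sequences are from RefSeq (GRCm38.p6).
Mmp13 (chr9:7272414-7272513, plus strand): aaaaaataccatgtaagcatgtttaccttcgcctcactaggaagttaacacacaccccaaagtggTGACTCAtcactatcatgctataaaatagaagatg
Mmp12 (chr9:7347274-7347373, plus strand): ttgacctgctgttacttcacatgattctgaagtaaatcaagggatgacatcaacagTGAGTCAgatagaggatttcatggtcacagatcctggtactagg
Mmp1b (chr9:7388027-7388126, minus strand): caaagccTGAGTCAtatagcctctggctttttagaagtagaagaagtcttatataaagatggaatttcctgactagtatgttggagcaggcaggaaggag
Mmp3 (chr9:7445722-7445821, plus strand): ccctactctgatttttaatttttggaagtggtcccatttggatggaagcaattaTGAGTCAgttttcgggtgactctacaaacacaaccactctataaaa
Mmp1a (chr9:7464041-7464140, plus strand): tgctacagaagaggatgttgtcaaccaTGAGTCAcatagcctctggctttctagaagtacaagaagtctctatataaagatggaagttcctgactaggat
Mmp10 (chr9:7502242-7502341, plus strand): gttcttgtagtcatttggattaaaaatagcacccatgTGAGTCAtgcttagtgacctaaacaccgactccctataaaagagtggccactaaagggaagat
Mmp7 (chr9:7691990-7692089, plus strand): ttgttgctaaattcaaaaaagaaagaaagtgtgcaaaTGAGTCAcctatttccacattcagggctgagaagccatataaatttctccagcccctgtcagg

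The element began between 35 bases (Mmp13) and 93 bases (Mmp1b) before the start. Promoter windows of 250 bases before to 50 bases after the start were on hand for 32 of the 46 members, 35 windows in all, since Mmp12, Mmp7 and Mmp23 have 2 annotated starts each. TGAGTCA or TGACTCA stood in 7 of the 12 windows of the cluster and in 0 of the 23 windows of other members, against 5.20% of the 32817 windows of all genes. For Mmp12 and Mmp7 it stood in 1 of the 2 windows. A match describes these letters only, and the windows of one cluster share their descent.

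Mmp25, the gene whose change passed the test below, lies elsewhere (chr17:23628315-23645269). Its 250 upstream bases hold no TGAGTCA or TGACTCA but hold the core of an ETS factor site, AGGAAG, at 121 and 12 bases before the start, in capitals here. AGGAAG or its reverse complement CTTCCT stood in 16 of the 35 member windows and in 35.4% of all windows.
Mmp25 (chr17:23645270-23645519, minus strand): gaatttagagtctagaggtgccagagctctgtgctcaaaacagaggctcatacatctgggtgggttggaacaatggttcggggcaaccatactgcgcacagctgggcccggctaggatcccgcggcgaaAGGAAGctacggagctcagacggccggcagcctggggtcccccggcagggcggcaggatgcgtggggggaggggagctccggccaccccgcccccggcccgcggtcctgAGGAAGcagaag

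Libraries held 27161882 to 33391075 counts. Values are CPM, the gene's share of a library's counts on a per-million scale, scaled with TMM factors, and each difference is a log2 fold change of MHE minus PBS with its standard error (SE) from edgeR's quasi-likelihood test, adjusted by Benjamini-Hochberg over all 16196 genes tested, with a threshold of 0.05. Adipocyte markers were abundant in every library of this stromal fraction, with summed levels of the 9 markers of 13573 to 21957 CPM in MHE libraries and 24441 to 34538 CPM in PBS libraries. PBS replicate 1 stood apart: all 8 epithelial markers and all 5 mesothelial markers were higher in it than in any other library, with epithelial sums of 5.60 and 6.53 CPM in MHE libraries and 162 and 2.13 CPM in PBS replicates 1 and 2. MHE replicate 1 was lower than MHE replicate 2 in 33 of the 37 tested members, against 50.4% of all tested genes, and 10 of 11 fibroblast and progenitor markers were also lower in it. In bulk RNA, fewer cells of a type and less RNA per cell cannot be told apart.

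Among the 46 members, Mmp25 alone passed the test, and it rose. Of the members, 37 had enough counts to be tested, 7 had too few and 2, the enamel protease gene Mmp20 and Mmp21, had 0 counts in every library. The filter asked for counts in at least 2 libraries, so a gene present in a single group could enter through that group. The 1 call is 2.70% of the tested members, below the 4.93% of all tested genes that were called (3.97% higher and 0.963% lower). Log2 fold changes ran from -3.99 to 3.45 with a median of -0.53, against -0.02 for all tested genes, and 26 of 37 were negative, against 51.2% of all genes. Both MHE libraries lay below both PBS libraries for 10 members, where 28.9% of all genes did so (10 of the 37 members), and above them for 5 members, where 33.1% of all genes did so (13.5% of members); in all, groups did not overlap for 62.0% of all genes. PBS replicate 1 was below PBS replicate 2 in 20 members and in 48.7% of all genes. An unadjusted p under 0.05 was reached by 7 members, 3 higher and 4 lower, or 18.9% against 28.6% of all genes. With other factors (5.01% of all genes called), library totals (5.85%), no count filter (4.18%) or a stricter one (6.61%) 1 member was called, with the replicate block 3 (4.72% of all genes) and with DESeq2 4 (18.2% of all genes).

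**Figure D1:**
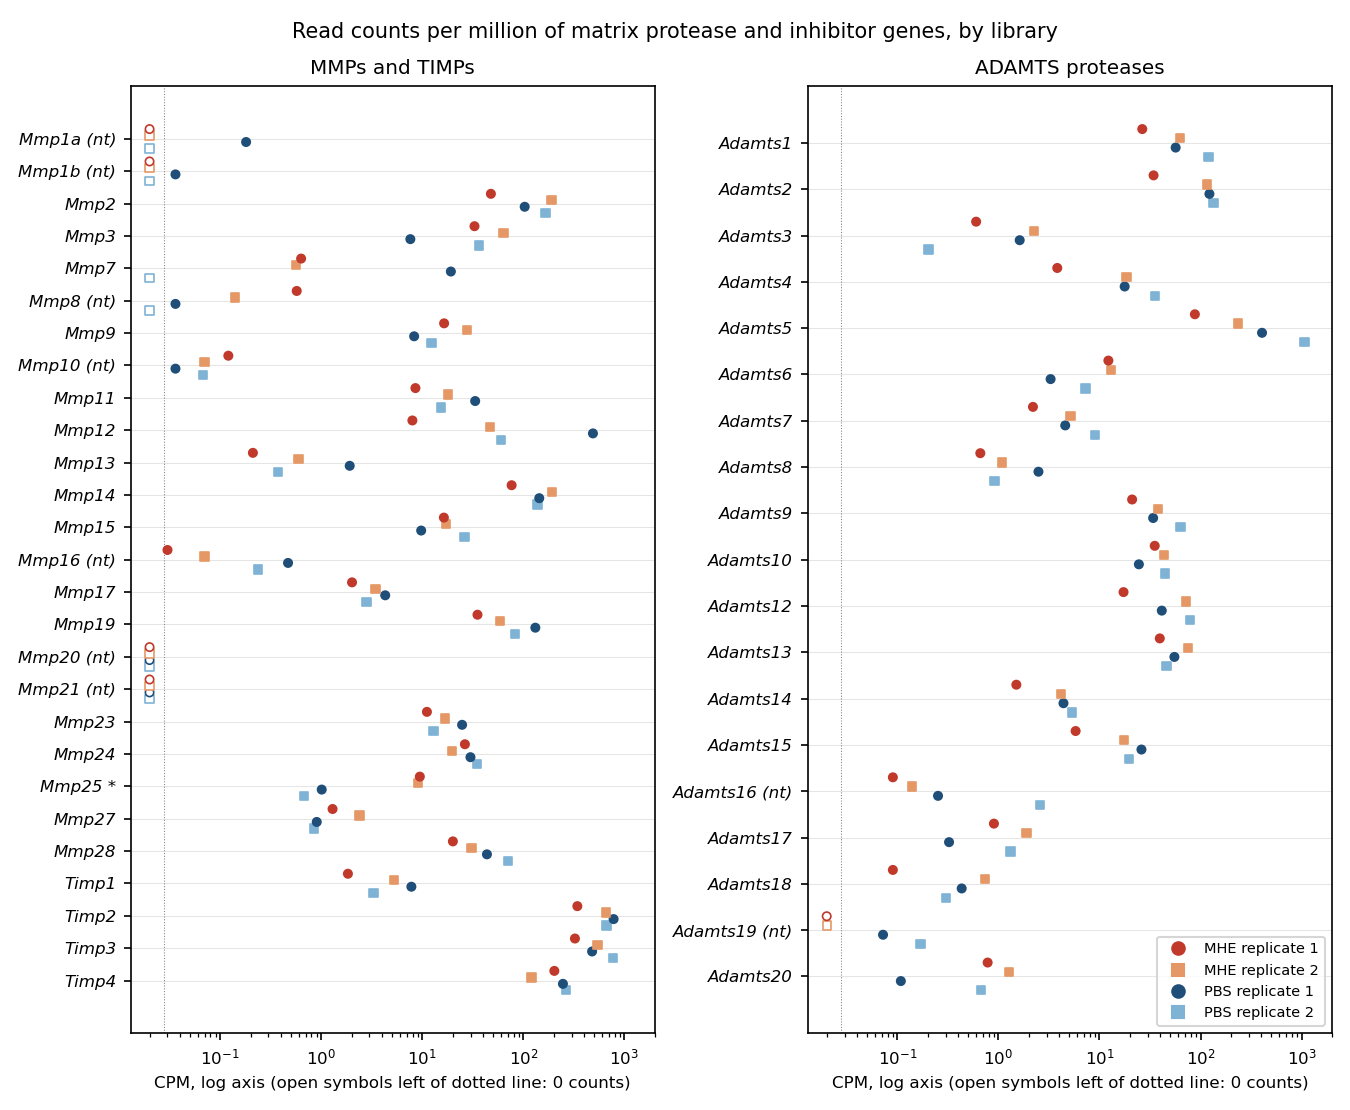
CPM of each member in each library on a log axis; circles are replicates 1, squares replicates 2, MHE in red and orange, PBS in blue, open symbols are libraries with 0 counts, an asterisk marks adjusted p under 0.05 and nt genes that were not tested. Mmp25 is at 9.09 to 9.45 CPM in MHE libraries and 0.676 to 1.01 CPM in PBS libraries, and Mmp12 stands out at 488 CPM in PBS replicate 1.

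Mmp25 encodes a membrane-type MMP tethered to the cell surface by a lipid anchor, also called leukolysin and in humans known from neutrophils. It stood at 9.45 and 9.09 CPM in MHE replicates 1 and 2 (314 and 259 counts), against 1.01 and 0.676 CPM in PBS replicates 1 and 2 (28 and 20 counts). The MHE libraries were alike and the groups were far apart. Mean levels differed 11.0-fold, with a log2 fold change of 3.45 ± 0.39 (SE, n = 2 each) and an adjusted p of 0.0248 by edgeR's quasi-likelihood test. With any single library left out the estimate lay between 3.20 and 3.75. The call was lost when either MHE library was left out (adjusted p = 0.322 for replicate 1 and 0.275 for replicate 2), and no gene of the whole table then passed.

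T cell markers rose too: all 9 that the files list were called higher, with summed levels of 877 and 661 CPM in MHE libraries against 34.1 and 12.0 CPM in PBS libraries, and the 8 B cell markers summed to 1860 and 1471 CPM in MHE libraries against 98.3 and 5.98 CPM in PBS libraries, with 3 of 8 called higher. Of 11 neutrophil markers, the chemokine receptor gene Cxcr2 rose and the defining marker Ly6g was at 0 in all libraries. The list summed to 42.9 and 26.4 CPM in MHE libraries against 40.1 and 11.5 CPM in PBS libraries. In PBS replicate 1, Ltf, also listed as an epithelial marker, made up 19.9 of the 40.1 CPM. Ltf had 0.421 and 0.105 CPM in MHE libraries and 0.0676 CPM in PBS replicate 2. Both MHE libraries lay above both PBS libraries for 3 of 11 (Cxcr2, Csf3r and Retnlg) and below for 0. Of all genes, 33.1% lay above and 28.9% below. The 8 dendritic cell markers summed to 318 and 245 CPM in MHE libraries against 40.7 and 40.4 CPM in PBS libraries, with 5 called higher. The 7 markers of lymph node stroma and venules summed to 818 and 479 CPM in MHE libraries against 146 and 14.5 CPM in PBS libraries. Ccl21a, also listed as a lymphatic endothelial marker, made up 630 and 375 CPM in MHE libraries against 124 and 1.22 CPM in PBS libraries. It did not pass the test, while 3 others (Glycam1, Cxcl13 and Tnfsf11) were called higher. Glycam1 and Chst4 were at 0 in PBS replicate 2, Madcam1 at 0 in PBS replicate 1 and Ccl19 at 0 in every library. What part these cells had in the Mmp25 difference was not tested.

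The other membrane-type enzymes did not follow Mmp25. Mmp14, the main cell-surface collagenase and activator of pro-MMP2, had 76.5 and 191 CPM in MHE libraries against 144 and 138 CPM in PBS libraries, so that the PBS values lay inside the MHE range (log2 fold change -0.07 ± 0.46, adjusted p = 0.927). Mmp15, a transmembrane relative, had 16.3 and 17.2 CPM in MHE libraries against 9.75 and 26.2 CPM in PBS libraries (-0.10 ± 0.48, adjusted p = 0.911). Mmp24, the membrane-type enzyme best known from neurons, had 26.4 and 19.6 CPM in MHE libraries against 30.0 and 34.6 CPM in PBS libraries, without overlap (-0.49 ± 0.24, adjusted p = 0.242). Mmp17, which like Mmp25 carries a lipid anchor, had -0.38 ± 0.48 with overlapping groups. Mmp16 was not tested, at 1 and 2 counts in MHE libraries against 13 and 7 counts in PBS libraries.

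The gelatinases Mmp2 and Mmp9 degrade denatured collagen and the type IV collagen of basement membranes. Mmp9, made chiefly by myeloid cells, had 16.4 and 27.7 CPM in MHE libraries against 8.30 and 12.4 CPM in PBS libraries. The groups did not overlap, with a log2 fold change of 1.09 ± 0.36 that missed the threshold (adjusted p = 0.136). Dropping PBS replicate 2 gave 1.42, dropping PBS replicate 1 gave 0.82 and dropping MHE replicate 2 gave 0.68. Mmp2, a fibroblast enzyme, had 47.7 and 190.1 CPM in MHE libraries against 103 and 166 CPM in PBS libraries, and MHE replicate 2 was 3.98 times as high as MHE replicate 1. Its log2 fold change was -0.18 ± 0.67 (adjusted p = 0.883), and it was 0.51 when MHE replicate 1 was left out, -1.48 when MHE replicate 2 was, and 0.21 when PBS replicate 2 was. The 11 fibroblast and progenitor markers summed to 1204 and 1872 CPM in MHE replicates 1 and 2. In PBS replicates 1 and 2 the sums were 2438 and 2110 CPM. Both MHE libraries lay above both PBS libraries for 2 of 11 (Icam1 and Dpp4) and below for 4. Of all genes, 33.1% lay above and 28.9% below. Icam1 was called higher, 1 of 11, where 3.97% of all genes were. The part of these cells in the gelatinase values was not tested.

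Mmp12, the macrophage elastase, was highest in 1 saline library. Levels were 7.98 and 46.5 CPM in MHE libraries against 488 and 60.1 CPM in PBS libraries (265 and 1326 counts against 13522 and 1778 counts). Both MHE libraries were lower than both PBS libraries, but MHE replicate 2 was close to PBS replicate 2, and PBS replicate 1 was 8.12 times as high as PBS replicate 2. The log2 fold change was -3.33 ± 1.29 with an adjusted p of 0.173. Leaving out PBS replicate 1 gave -1.16 and leaving out PBS replicate 2 gave -4.16, and for MHE replicates 1 and 2 the values were -2.54 and -5.09. Exons of Mmp12 overlap those of Mmp1b on the other strand in GENCODE, and Mmp1b had 1 count in all.

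The lipid-associated macrophage markers Trem2 and Gpnmb, picked for the plot after their values were seen, stood in the same order across libraries as Mmp12. Trem2, a lipid-sensing receptor, had 2.62 and 18.3 CPM in MHE libraries against 125 and 24.7 CPM in PBS libraries, and Gpnmb, a glycoprotein of such macrophages, 24.1 and 201 CPM against 955 and 207 CPM. Of the 10 markers listed, 7 were highest in PBS replicate 1, while Lpl, Cd36 and Fabp5 were highest in PBS replicate 2. Both MHE libraries lay below both PBS libraries for 8 of the 10, where 28.9% of all genes did so. The groups overlapped for Itgax and Atp6v0d2. None of the 10 passed the test and none was at 0. Their sums, 4993 and 7840 CPM in MHE libraries and 15900 and 19597 CPM in PBS libraries, came largely from Lpl and Cd36, which adipocytes also express. General macrophage markers summed to 1171 and 1634 CPM in MHE libraries and 2066 and 1127 CPM in PBS libraries. Their part in the Mmp12 values was not tested.

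**Figure D2:**
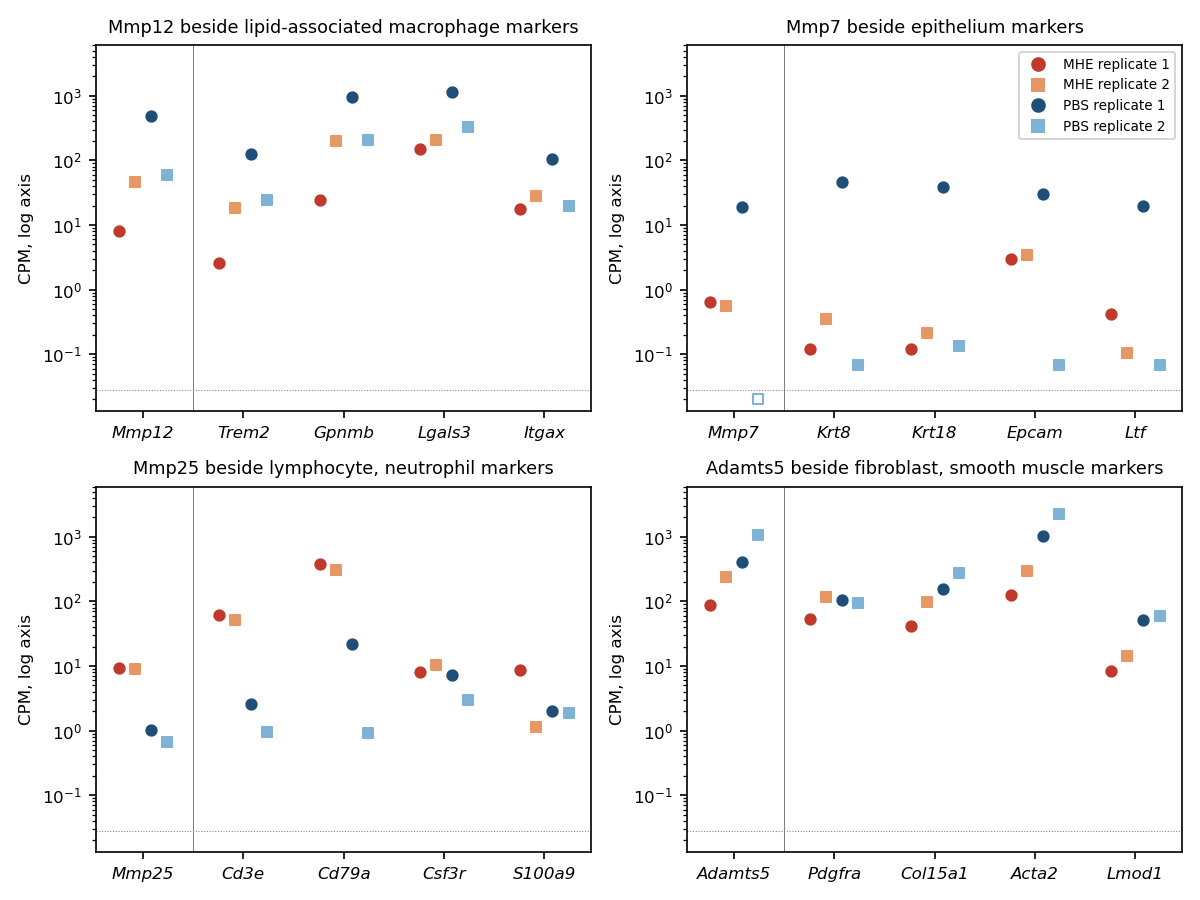
CPM on a log axis of Mmp12, Mmp7, Mmp25 and Adamts5, each left of the vertical line, beside 4 cell type markers, in the 4 libraries (symbols as in the plot of all members; open, 0 counts). Mmp12 and Trem2 are highest in PBS replicate 1, and Mmp7 is high only where Krt8 (46.4 CPM) and Epcam (30.0 CPM) are. Mmp25 and Cd3e are higher in both MHE libraries. S100a9, beside Mmp25, overlaps between groups, with 8.61 and 1.12 CPM in MHE libraries against 2.02 and 1.89 CPM in PBS libraries. The markers were picked from longer lists with earlier results of these data known. Not shown are Icam1 and Dpp4, fibroblast markers higher in both MHE libraries, and the overlapping markers Rgs5, Pdgfrb, Cspg4 and Notch3.

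Mmp7, matrilysin, an enzyme of glandular and mucosal epithelia, was nearly confined to PBS replicate 1. Counts were 21 and 16 in MHE libraries against 531 and 0 in PBS libraries, or 0.632 and 0.562 CPM against 19.2 and 0 CPM. The fitted log2 fold change of -3.99 ± 2.21 (adjusted p = 0.294) rests on that library. Leaving it out turned the direction, with the mean MHE level 5.89-fold that of a chosen floor of 3 counts in PBS replicate 2. Leaving out PBS replicate 2 gave -4.98. The keratin gene Krt8 had 0.120 and 0.351 CPM in MHE libraries against 46.4 and 0.0676 CPM in PBS libraries. In PBS replicate 2 the epithelial markers Krt5, Krt14 and Elf5 were at 0, as was Elf5 in MHE replicate 1.

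The stromelysins cut a broad range of matrix proteins and activate other pro-MMPs. Mmp3, stromelysin-1, had 32.8 and 63.6 CPM in MHE libraries against 7.62 and 36.4 CPM in PBS libraries, so that PBS replicate 2 lay above MHE replicate 1 (log2 fold change 1.13 ± 0.77, adjusted p = 0.376). Leaving out PBS replicate 2 gave 2.67, and leaving out PBS replicate 1 gave 0.39. Mmp11, stromelysin-3, had 8.55 and 17.9 CPM in MHE libraries against 33.4 and 15.2 CPM in PBS libraries (-0.88 ± 0.52, adjusted p = 0.324). Mmp10, stromelysin-2, had 1 to 4 counts per library.

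Collagenases, which open the collagen triple helix, were scarce. Mmp13 had 7 and 17 counts in MHE libraries against 53 and 11 counts in PBS libraries (log2 fold change -1.50 ± 1.03, adjusted p = 0.382), with PBS replicate 1 the highest, and 0.09 without that library. Mmp8, the neutrophil collagenase, had 19 and 4 counts in MHE libraries against 1 and 0 counts in PBS libraries and was not tested. Mmp1a and Mmp1b, the rodent counterparts of human MMP1, had 0 counts in both MHE libraries and 5 counts and 1 count in PBS replicate 1.

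Within the chromosome 9 cluster, neighbours differed in the library where each was highest. Mmp13, Mmp12, Mmp1b, Mmp1a and Mmp7 were highest in PBS replicate 1, Mmp3 and Mmp27 in MHE replicate 2, and Mmp10 and Mmp8 in MHE replicate 1. For Mmp1a, Mmp1b and Mmp10, with 1 to 9 counts in all, the highest library carries no weight. Of the 7 Fos and Jun family genes that encode AP-1, all listed and tested, Fosb rose, a call lost in several settings given below. Junb (1.26 ± 0.28, adjusted p = 0.0693) and Jund (0.48 ± 0.22, adjusted p = 0.220) had both MHE libraries above both PBS libraries, and Fosl1 (-0.72 ± 0.52, adjusted p = 0.402) had both below. Groups overlapped for Fos (-0.37), Fosl2 (-0.48) and Jun (-0.21).

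**Figure D3:**
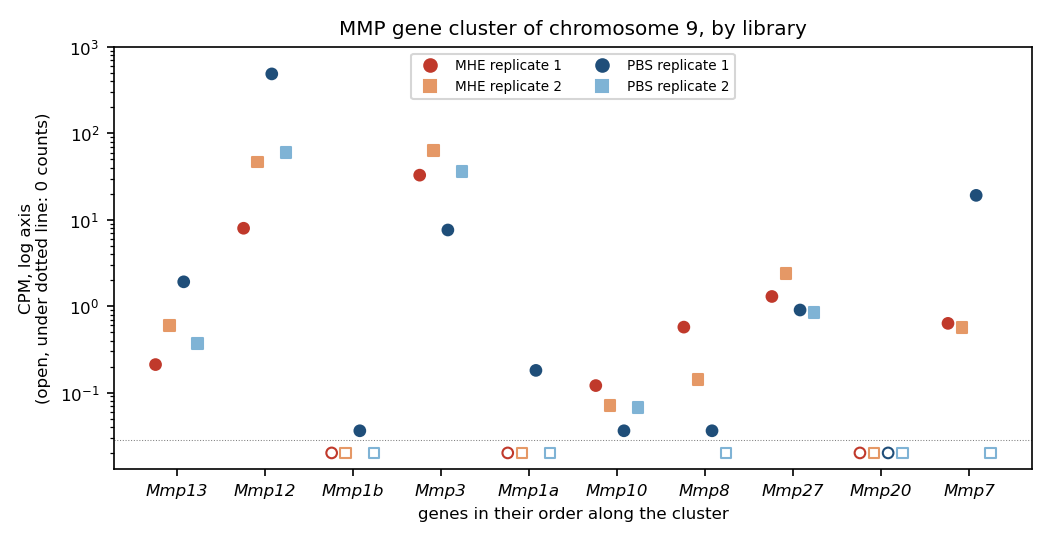
CPM on a log axis of the 10 genes of the chromosome 9 cluster, in their order along the chromosome, in the 4 libraries (open symbols under the dotted line, 0 counts). Mmp12, Mmp13 and Mmp7 peak in PBS replicate 1, while Mmp3, between them, is lowest there at 7.62 CPM.

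Mmp19 and Mmp28 were the MMPs with the smallest p among those with negative log2 fold changes. Mmp19, a basement membrane-cleaving enzyme, had 35.2 and 58.8 CPM in MHE libraries against 131 and 83.0 CPM in PBS libraries, and Mmp28, epilysin, had 20.1 and 30.7 CPM in MHE libraries against 43.6 and 70.9 CPM in PBS libraries. In both, the groups did not overlap. Log2 fold changes were -1.19 ± 0.37 for Mmp19 (adjusted p = 0.122) and -1.17 ± 0.34 for Mmp28 (adjusted p = 0.112) by edgeR, and both passed with DESeq2 (adjusted p = 0.0203 and 0.0225). With PBS replicate 2 left out Mmp19 was -1.48, and with PBS replicate 1 left out Mmp28 was -1.50. Some left-out fits gave smaller differences of the same sign. Mmp19 was -0.84 with PBS replicate 1 left out and -0.85 with MHE replicate 1 left out, and Mmp28 was -0.77 with PBS replicate 2 left out. Exons of both genes overlap others on the opposite strand in GENCODE, and their reads cannot be told apart without strand. In all, 10 members have such an overlap, Mmp7, Mmp24, Adamts7, Adamts8 and Adamts9 among them.

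Mmp23 and Mmp27 completed the MMPs. Mmp23, which sheds itself from the membrane, had 11.1 and 16.9 CPM in MHE libraries against 24.8 and 12.9 CPM in PBS libraries (log2 fold change -0.43 ± 0.40, adjusted p = 0.520, and 0.10 without PBS replicate 1). Mmp27 had 1.29 and 2.39 CPM in MHE libraries against 0.902 and 0.845 CPM in PBS libraries, without overlap (1.07 ± 0.57, adjusted p = 0.279).

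Adamts5, the main aggrecanase of mouse cartilage and a versican-cleaving enzyme of soft tissue, had the highest counts of any ADAMTS gene. It had 87.9 and 235 CPM in MHE libraries against 406 and 1065 CPM in PBS libraries. Each PBS library lay above both MHE libraries, and replicate 1 was the lower library in both groups, MHE replicate 2 being 2.67 times as high as MHE replicate 1. The log2 fold change was -2.19 ± 0.70 with an adjusted p of 0.129 by edgeR, while DESeq2 gave -2.22 with an adjusted p of 0.00273. With PBS replicate 1 left out the log2 fold change was -2.74 and with PBS replicate 2 left out -1.33, while leaving out MHE replicates 1 and 2 gave -1.64 and -3.05.

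The 9 smooth muscle and pericyte markers summed to 511 and 889 CPM in MHE libraries against 2855 and 3309 CPM in PBS libraries. Of these, 1 of 9 (Lmod1) was called lower, where 0.963% of all genes were. Both MHE libraries lay below both PBS libraries for 4 of 9, where 28.9% of all genes did so. Blood endothelial markers summed to 804 and 870 CPM in MHE libraries against 873 and 1645 CPM in PBS libraries. The part of these cells in the Adamts5 values was not tested.

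The other proteoglycan-cleaving enzymes had smaller differences, and none passed. Adamts1, an inflammation-induced versican protease next to Adamts5 on chromosome 16, had 26.5 and 63.1 CPM in MHE libraries against 56.7 and 120 CPM in PBS libraries (log2 fold change -0.98 ± 0.55, adjusted p = 0.300). Adamts4, the other cytokine-inducible aggrecanase, had 3.82 and 18.5 CPM in MHE libraries against 17.8 and 35.5 CPM in PBS libraries (-1.26 ± 0.78, adjusted p = 0.340). Adamts9 (-0.72), Adamts15 (-0.97) and Adamts8 (-0.96) also had negative values, with adjusted p between 0.298 and 0.416. Adamts20 had 26 and 36 counts in MHE libraries against 3 and 20 counts in PBS libraries (1.36 ± 0.96, adjusted p = 0.390). Leaving out 1 library moved Adamts1 between -1.72 (MHE replicate 2) and -0.33 (PBS replicate 2), and Adamts4 between -2.79 (MHE replicate 2) and -0.52 (MHE replicate 1). In the group of 7, Adamts5 included, the median was -0.97, and all 7 were lower in MHE replicate 1 than in MHE replicate 2.

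The procollagen N-propeptidases remove the amino-terminal extension of procollagens before fibrils form. Adamts2, the main enzyme for type I procollagen, had 34.3 and 117 CPM in MHE libraries against 122 and 134 CPM in PBS libraries, with MHE replicate 2 just below the PBS libraries (log2 fold change -0.77 ± 0.58, adjusted p = 0.423). The value for Adamts2 was -0.13 with MHE replicate 1 left out and -1.89 with MHE replicate 2 left out. Its substrate gene Col1a1, chosen after its values were seen, had 73.4 and 1339 CPM in MHE libraries against 241 and 787 CPM in PBS libraries. Adamts14 had 1.51 and 4.14 CPM in MHE libraries against 4.40 and 5.34 CPM in PBS libraries (-0.79 ± 0.57, adjusted p = 0.404), and -0.22 or -1.68 when MHE replicate 1 or 2 was left out. Adamts3, which also matures the lymphangiogenic factor VEGF-C, had 20 and 64 counts in MHE libraries against 45 and 6 counts in PBS libraries. Its value of 0.64 ± 1.14 (adjusted p = 0.740) turned when MHE replicate 2 (-0.58) or PBS replicate 2 (-0.19) was left out.

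The remaining ADAMTS genes were led by Adamts6, a relative of the fibrillin-binding Adamts10. Adamts6 had 12.3 and 13.0 CPM in MHE libraries against 3.28 and 7.27 CPM in PBS libraries, without overlap (log2 fold change 1.26 ± 0.43, adjusted p = 0.144, 1.95 with adjusted p = 0.00836 without PBS replicate 2, and 0.78 with adjusted p = 0.167 without PBS replicate 1). Adamts13, the protease of von Willebrand factor, had 39.5 and 74.8 CPM in MHE libraries against 55.2 and 46.0 CPM in PBS libraries (0.18 ± 0.35, adjusted p = 0.763, and -0.34 without MHE replicate 2). Adamts10 had 0.19 ± 0.33, and Adamts12 had -0.42 ± 0.71 with 17.3 and 71.9 CPM in MHE libraries against 41.4 and 78.3 CPM in PBS libraries. Adamts10 turned to -0.19 without PBS replicate 1, and Adamts12 to 0.28 when MHE replicate 1 and to 0.11 when PBS replicate 2 was left out.

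The low-count genes of this group were Adamts7, Adamts16, Adamts17, Adamts18 and Adamts19. Adamts7, an enzyme that cleaves cartilage oligomeric matrix protein, had 2.20 and 5.16 CPM in MHE libraries against 4.58 and 9.02 CPM in PBS libraries (-0.89 ± 0.57, adjusted p = 0.356). Adamts17 and Adamts18 had 0.76 ± 0.86 (adjusted p = 0.589) and 0.15 ± 1.09 (adjusted p = 0.938), and Adamts18 turned to -1.97 when MHE replicate 2 and to -0.08 when PBS replicate 2 was left out. Adamts16 had 3 and 4 counts in MHE libraries against 7 and 76 counts in PBS libraries, and the count filter kept it out of the main test. With all libraries and no count filter its log2 fold change was -3.56 (adjusted p = 0.184 by edgeR's quasi-likelihood test). Without PBS replicate 1 it was -4.46, a value that rests on the 76 counts of PBS replicate 2 alone. Adamts19 had 0 counts in MHE libraries against 2 and 5 counts in PBS libraries.

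**Figure D4:**
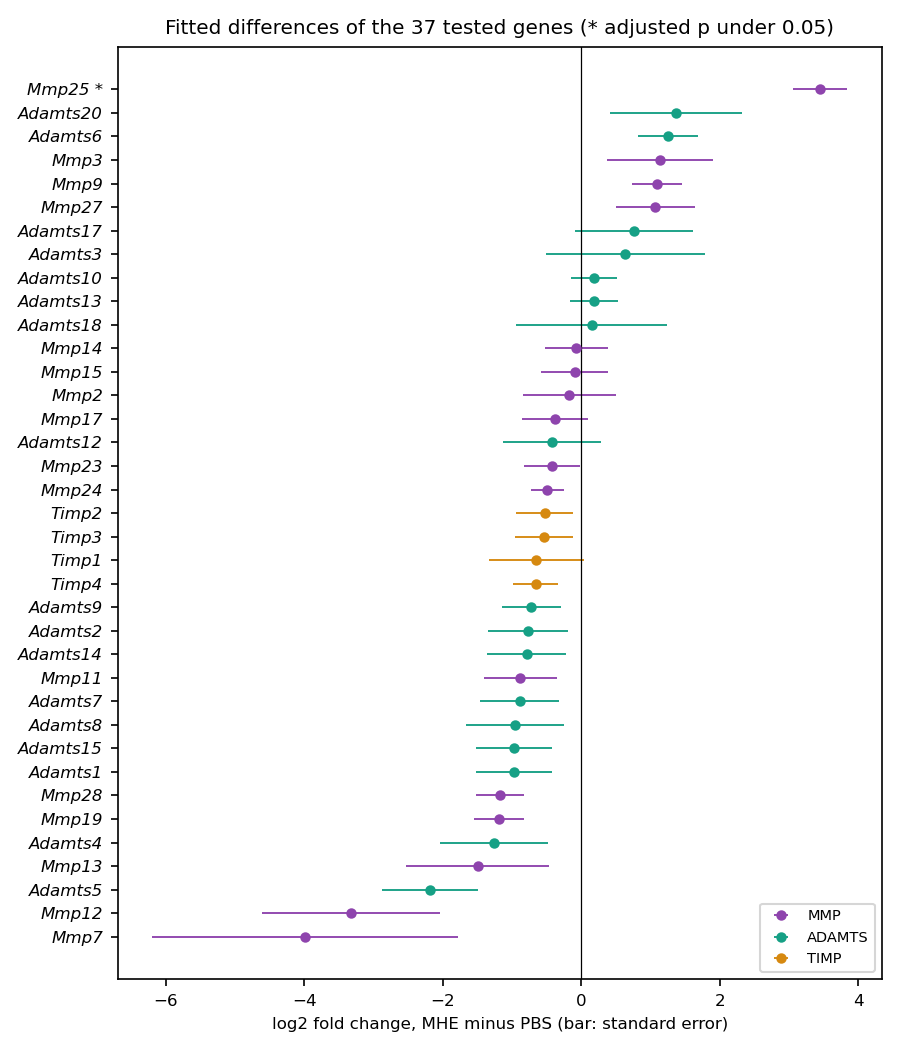
Log2 fold change (MHE minus PBS) with its standard error for the 37 tested members, ordered by value, MMPs in purple, ADAMTS genes in green and TIMPs in orange. Mmp25 is at 3.45 with an adjusted p of 0.0248, the 4 TIMPs lie close together between -0.66 and -0.53, and Mmp12 and Mmp7 have the widest bars.

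The inhibitors had negative log2 fold changes between -0.66 and -0.53 with all libraries, and none of the 4 passed. With 1 library left out the values ran from -1.07 to -0.12 for Timp2, -0.94 to -0.14 for Timp3 and -1.07 to -0.32 for Timp4. Timp2, which also takes part in MMP2 activation, had 342 and 658 CPM in MHE libraries against 782 and 665 CPM in PBS libraries, MHE replicate 2 lying just below PBS replicate 2 (-0.53 ± 0.41, adjusted p = 0.435). Timp3, bound to the matrix and also an inhibitor of ADAMTS4 and ADAMTS5, had 324 and 543 CPM in MHE libraries against 479 and 775 CPM in PBS libraries (-0.53 ± 0.42, adjusted p = 0.441). Timp4, the inhibitor gene with marked expression in fat, had 203 and 121 CPM in MHE libraries against 246 and 265 CPM in PBS libraries, without overlap (-0.66 ± 0.33, adjusted p = 0.248). Unlike the other TIMPs it was higher in MHE replicate 1 than in MHE replicate 2, as were Mmp24, Mmp25 and Mmp7 among the tested members. Exons of Timp4 overlap Syn2 on the opposite strand.

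Timp1, on the X chromosome, is the inducible inhibitor of inflamed and fibrotic tissue. It had 1.84 and 5.23 CPM in MHE libraries against 7.80 and 3.28 CPM in PBS libraries, with the groups overlapping (-0.65 ± 0.68, adjusted p = 0.563, and 0.09 without PBS replicate 1).

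Levels of different genes were compared per kilobase of the longest protein-coding transcript in GENCODE M21. On this scale Timp2 was the most abundant member (mean CPM per kb of 135 in MHE libraries and 195 in PBS libraries), followed by Timp3 (91.8 and 133) and, by the mean over all libraries, by Mmp14 (41.3 in MHE and 43.4 in PBS), Mmp12 (7.56 in MHE and 76.0 in PBS), Adamts5 (14.9 in MHE and 68.2 in PBS), Mmp2 (38.6 in MHE and 43.7 in PBS) and Timp4 (29.4 in MHE and 46.5 in PBS). The place of Mmp12 rests on PBS replicate 1, with 2.21 and 12.9 CPM per kb in MHE libraries against 135 and 16.7 in PBS libraries, and Adamts5 had 8.15 and 21.7 CPM per kb in MHE libraries against 37.6 and 98.7 in PBS libraries. Mmp25, the gene that rose, was at rank 27, with 2.05 CPM per kb in MHE libraries and 0.186 in PBS libraries.

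The summed level of the 4 TIMPs exceeded that of the 23 MMPs in every library. TIMP sums were 200 and 320 CPM per kb in MHE libraries against 366 and 395 CPM per kb in PBS libraries, and MMP sums were 106 and 236 CPM per kb in MHE libraries against 332 and 212 CPM per kb in PBS libraries. The ratio of the TIMP sum to the MMP sum was 1.89 and 1.36 in MHE libraries against 1.10 and 1.86 in PBS libraries, and with Mmp12 left out 1.93 and 1.43 in MHE libraries against 1.86 and 2.02 in PBS libraries. ADAMTS sums were 45.5 and 104 CPM per kb in MHE libraries against 105 and 196 CPM per kb in PBS libraries, of which Adamts5 made up 17.9% and 21.0% in MHE libraries and 35.7% and 50.3% in PBS libraries. These sums are descriptions of single libraries, the MMP sums of the groups overlapped, and the ADAMTS sums were separated only by 104 in MHE replicate 2 against 105 in PBS replicate 1.

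**Figure D5:**
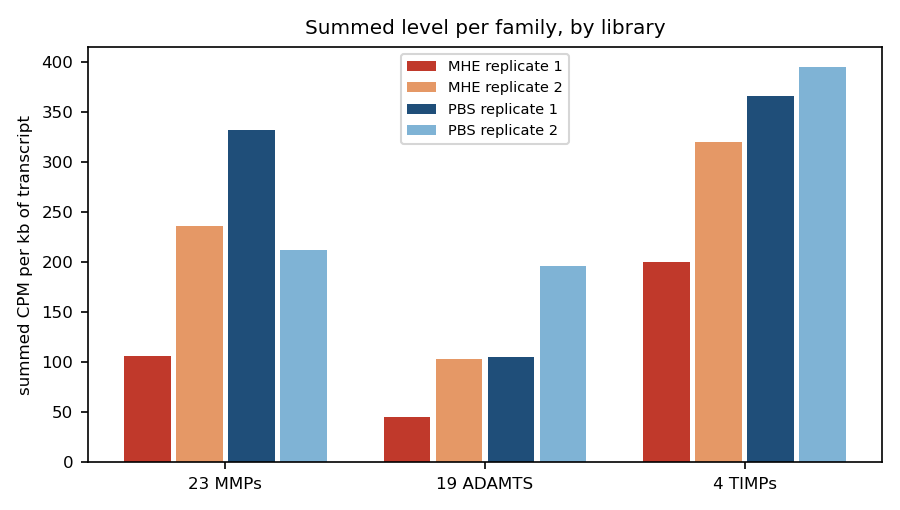
Summed CPM per kilobase of transcript of the 23 MMPs, 19 ADAMTS genes and 4 TIMPs, 1 bar per library, from an axis starting at 0. MHE replicate 1 has the lowest bar in each family, and TIMP bars are 200 and 320 in MHE libraries against 366 and 395 in PBS libraries.

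Other genes of matrix breakdown were taken from 7 lists of 116 genes, of which 102 were tested, 3 rose and 1 fell, again near the 4.93% of all tested genes. Itgb3, the integrin beta-3 chain that docks MMP2 at cell surfaces in a pair with alpha-V, rose, with 30.9 and 35.9 CPM in MHE libraries against 7.22 and 8.72 CPM in PBS libraries (log2 fold change 2.07 ± 0.23, adjusted p = 0.0242). Ncan, the brain proteoglycan neurocan, fell, with 1.87 and 2.63 CPM in MHE libraries against 10.9 and 23.3 CPM in PBS libraries (-2.92 ± 0.48, adjusted p = 0.0429). Of 13 AP-1, ETS and RUNX factors tested, Fosb (3.89 ± 0.67, adjusted p = 0.0469) and Runx1 (1.46 ± 0.26, adjusted p = 0.0485) rose. All 4 calls were lost when MHE replicate 1 (adjusted p between 0.311 and 0.344) or MHE replicate 2 (0.262 to 0.296) was left out. That of Fosb was also lost when PBS replicate 1 (0.132) or PBS replicate 2 (0.176) was left out.

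No gene of the remaining lists passed. Among 15 tested activating proteases the smallest p values were those of Plau, urokinase, which starts the plasmin cascade (25.4 and 37.9 CPM in MHE libraries against 179 and 40.0 CPM in PBS libraries, adjusted p = 0.185), and Ctsg, a neutrophil protease (adjusted p = 0.186). Plau was highest in PBS replicate 1, like Mmp12, and its log2 fold change ran from -2.49 to -0.36 with 1 library left out. Ctsg had 0 counts in PBS replicate 2. Of 11 tested genes in the list of other inhibitors 10 had negative values. This list also holds genes that encode no inhibitor, among them procollagen proteinase enhancers and the matricellular protein gene Sparcl1. Nearest the threshold were Tfpi2, a Kunitz-type inhibitor (-1.90 ± 0.42, adjusted p = 0.0678), and Sparcl1 (-1.34 ± 0.34, adjusted p = 0.0868). Of 19 other metalloproteases, Adam19 had 0.94 ± 0.18 (adjusted p = 0.0537) and Adam15 -1.07 ± 0.23 (adjusted p = 0.0654), and of 7 cysteine proteases the lysosomal Ctsl had -1.47 ± 0.33 (adjusted p = 0.072) and Ctsb -1.06 ± 0.42 (adjusted p = 0.178). With 1 library left out, Tfpi2 ran from -2.44 to -1.48 and Sparcl1 from -1.72 to -1.02. Adam15 then ran from -1.22 to -0.91 and Ctsl from -1.68 to -1.27.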

How the data were processed

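Counts came from 4 RNA-seq libraries, 2 of MHE and 2 of PBS mice. The deposited values are raw read counts for each gene symbol, and per the submitters' processing notes TopHat2, edgeR, limma and the build mm10 were used. Counting program, annotation and strand setting: not given in the sources used here. With edgeR 4.0.16 in R 4.3.3, genes were filtered (filterByExpr, minimum count 10, minimum total 15), scaled with TMM factors and tested with a robust quasi-likelihood fit of group only, on all 4 libraries. Each SE was taken as |log2 fold change| over √F. Biological coefficient of variation was 33.6%. P-values rest on a gene's spread between the 2 libraries of each group, drawn towards a trend over all genes (median prior degrees of freedom 3.13). An exact permutation of 2 against 2 cannot give a two-sided p under 0.333. Replicate pairs differed by more than sampling noise (chi-square per degree of freedom 118 and 146). In data simulated for these 16196 genes, 4.40% of 2-fold, 61.6% of 4-fold and 91.2% of 16-fold changes were recovered, and 14.2% of calls were false. Members, role groups and lists were chosen with earlier results of these data known. All members may be named; of listed pathway genes, those called or else the 2 with the smallest p in a list, besides Col1a1 and the Fos and Jun genes, chosen after their values were seen. Positions and promoter windows are from RefSeq GRCm38.p6, and transcript lengths and exon overlaps from GENCODE M21. Other settings tried were DESeq2 1.42.0, scaling by median-of-ratios factors or by totals only, dropping or tightening the count filter (CPM of 1 in 2 libraries, total of 50), a replicate block, and leaving out 1 library at a time.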

Additional observations from a re-analysis of the deposited data

How the results depend on the processing

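The number of members called was 1 in all of the settings that changed only scaling or the count filter, always Mmp25. It was 4 with DESeq2 (Mmp25, Adamts5, Mmp19 and Mmp28, with 18.2% of all genes called) and 3 with the replicate block (Mmp25, Adamts5 and Mmp28). With a single library left out it moved both ways, as did the share of all genes called. The count of pathway genes called was 4, also with median-of-ratios factors; 6 with library totals and with the stricter filter (Adam19 and Ets1 added); 4 with no filter, where Ets1 was called and Fosb was not (adjusted p = 0.0579); 26 with DESeq2; 7 with the replicate block, where Fosb (0.0693) and Runx1 (0.0661) were not; and 0 to 28 with a library left out. With 1 library of a group left out, a gene's own spread comes from the other group alone, drawn towards a trend over all genes. Nothing in the labels says that equal replicate numbers mark a shared origin, and deviations of equal numbers correlated at 0.12, so the block is given here only.

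Scaling by library totals moved the median of all genes by 0.165, and Mmp14 (0.082), Mmp15 (0.11) and Mmp2 (7.6e-05) turned positive with it. Under the block, Mmp15 (0.067) and Adamts18 (-0.28) turned. With a library left out the direction turned at least once for 12 of 37 members, whose log2 fold changes ran from -0.19 to 0.69 (Adamts10), -1.78 to 0.28 (Adamts12), -0.34 to 0.58 (Adamts13), -1.97 to 1.01 (Adamts18), -0.58 to 2.76 (Adamts3), -2.40 to 0.086 (Mmp13), -1.48 to 0.51 (Mmp2), -0.87 to 0.45 (Mmp14), -0.66 to 0.79 (Mmp15), -0.82 to 0.10 (Mmp23), -4.98 to 7.19 (Mmp7, whose upper value is fitted against 0 counts and is no bound) and -1.58 to 0.085 (Timp1). The cause of these changes beyond the fewer samples was not tested. Mmp20 and Mmp21 had no counts to test. The 7 sparse members, tested with no count filter, had adjusted p from 0.184 to 0.788.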
